A study of Mus musculus with 6 samples.

Results

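The genes described here are mouse zinc-finger genes whose symbol is Zfp followed by a number below 600. They were chosen by symbol, with Zfp36 left out because its protein is an RNA-binding zinc finger of another type, and each gene is read from the brightest, on average over the 6 arrays, of the probe sets that name it alone. The rule found 177 genes of 19938 that the array names. The family was picked with results of this same contrast in view, Zfp182 being already known as one of its steep rises. The values of Zfp182 are therefore given without a test, though the counts of called genes include it. Counts over the family describe these arrays and are read as no evidence about the family.

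Expression was measured in pre-B cells from mice of a 129SvEv x C57BL/6J background, aged 5 weeks, that had been transformed with BCR-ABL1, a fusion kinase that drives a form of acute lymphoblastic leukaemia. Their genotype was Sox4fl/fl throughout, meaning that both copies of the transcription factor gene Sox4 can be cut out by Cre. The 3 control samples expressed ERT2 alone, which is a piece of the oestrogen receptor that binds tamoxifen derivatives. The 3 other samples expressed Cre-ERT2, in which that piece keeps the recombinase inactive until 4OHT (hydroxytamoxifen) is given. RNA was taken 24 h after 4OHT, and the question of the comparison is what differs once Sox4 has been deleted. No group here combines Cre-ERT2 with unfloxed Sox4, so Sox4 loss and Cre activity cannot be told apart, and nothing states that samples within a group were separate cultures. The p-values therefore measure the spread between these samples only, which may be technical.

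Zinc fingers of this family are short loops in which a zinc ion is held by cysteines and histidines, and tandem arrays of them read DNA sequence. Many of these proteins also carry a KRAB domain, which recruits the co-repressor TRIM28 and with it the H3K9 methyltransferase SETDB1 and HP1 proteins. KRAB zinc-finger genes are known for silencing retroelements and for lying in clusters that arose by gene duplication. Other members have no KRAB domain and act in lineage choice, transcription from GC-rich promoters, RNA handling or ubiquitin and SUMO transfer.

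Median intensity per array lay between 273 and 279, on a linear scale after RMA, and the small number of arrays limits the precision. Sox4 had a mean intensity of 1356 ± 112 (SD, n = 3) in ERT2 and 546 ± 50.4 (SD, n = 3) in Cre-ERT2, with no overlap of the groups. Cre-ERT2 samples thus kept 40.3% of the control intensity, and how complete the deletion was at 24 h was not tested. The 7 pre-B cell markers measured had mean intensities of at least 2299. The 16 measured markers of T, myeloid, erythroid and stromal cells had means between 81.1 and 555. Among these 23 markers Il7r and Itgam passed the test, both lower in Cre-ERT2, with differences of -0.93 and -0.49 on the log2 scale. Of all genes 4.38% passed as higher and 3.72% as lower, and nothing is read from the count of markers. The summed intensity of the myeloid markers was 799 to 808 in ERT2 and 722 to 759 in Cre-ERT2, and that of the pre-B markers 69270 to 69510 and 64310 to 65450. The largest fall within each sum was that of Itgam, with means of 198.5 and 141, and of Il7r, with 6617 and 3481. Of the other pre-B markers Pax5 (-0.22, limma adjusted p = 0.0552), Cd79a (-0.07) and Ebf1 (-0.03) were lower. Cd79b (0.03), Vpreb1 (0.04) and Igll1 (0.01) had differences above 0. Of the other myeloid markers Csf1r (-0.02), Elane (-0.07) and Ly6g (-0.07) were lower and Mpo (0.13) was higher. The part of these markers in the results below was not tested. In RNA from whole cultures, fewer cells of a type and less RNA per cell cannot be told apart.

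Most of the Zfp genes differed little between the groups. The difference in log2(intensity + 1), Cre-ERT2 minus ERT2, ran from -1.44 to 2.08 over the 177 genes with a median of 0.02, and it was within 0.25 in either direction for 152 of them. Over all 19938 genes the median was 0.02 as well. At an adjusted p under 0.05 from limma over all probe sets, 9 of the 177 were higher (5.08%, against 4.38% of all genes) and 10 were lower (5.65%, against 3.72% of all genes). The 9 include Zfp182, whose rise was known beforehand. Nothing is read from these shares, since the family was proposed from this contrast. In 26 genes all Cre-ERT2 arrays lay above all ERT2 arrays (14.7%, against 17.5% of all genes), in 29 they lay below (16.4%, against 10.8%), and in 122 the groups overlapped. All 19 genes past the threshold were among those with no overlap.

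The counts shift with the scaling and with the arrays used. The shares of all genes called under these settings are not given here, so nothing is read about the family from the shifts. After cyclic loess between arrays 9 were higher and 17 lower, and the median of the 177 was -0.02. With array weights 19 were higher and 16 lower. With 1 array left out the numbers higher and lower were 5 and 4 without ERT2 replicate 1, 11 and 8 without ERT2 replicate 2, and 5 and 6 without ERT2 replicate 3. Removing Cre-ERT2 replicate 1 gave 4 and 5, removing replicate 2 of that group 3 and 6, and removing its replicate 3 gave 2 and 5.

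**Figure D1:**
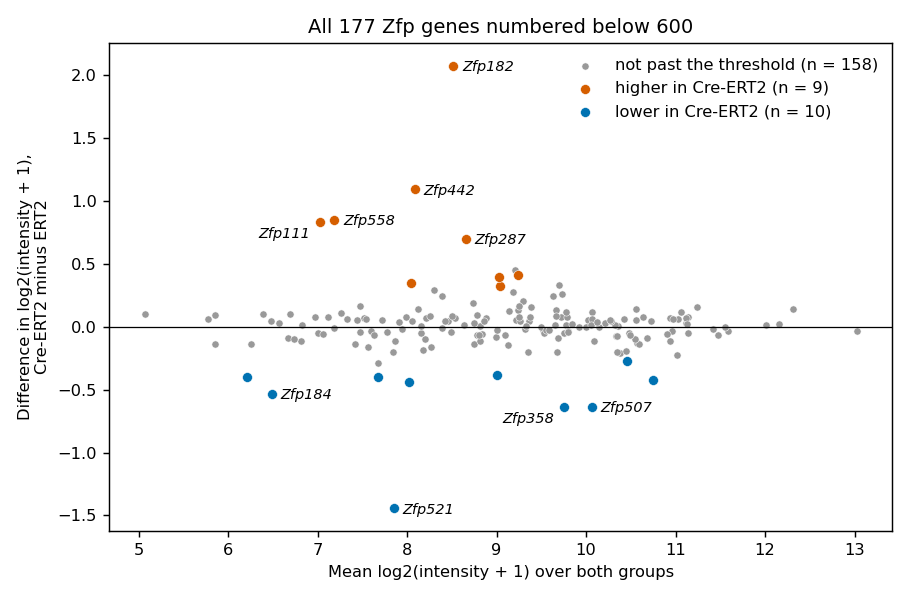
Each point is 1 of the 177 Zfp genes; the x axis is its mean log2(intensity + 1) over both groups and the y axis the difference Cre-ERT2 minus ERT2 on that scale. Most points lie close to 0, while Zfp182 (2.08) and Zfp521 (-1.44) stand at the ends.

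Zfp182 was the member with the largest positive difference. Its probe set (10603881) read 171, 184 and 175 in ERT2 replicates 1 to 3 and 714, 797 and 738 in Cre-ERT2 replicates 1 to 3. Every Cre-ERT2 array was far above every ERT2 array. The means were 176 ± 6.43 and 750 ± 42.6 (SD, n = 3 each), a difference of 2.08 on the log2 scale (SE 0.0605), or 4.23-fold. Zfp182 encodes a protein with tandem zinc fingers, and no further role is given here.

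The 8 other genes that rose did so by 0.33 to 1.10 on the log2 scale. Zfp442 (probe set 10488459) read 138, 222 and 205 in ERT2 and 385, 428 and 376 in Cre-ERT2, a rise of 1.10 (SE 0.177, limma adjusted p = 0.0157). Its controls were spread widely, with ERT2 replicate 1 lowest, but all lay below the Cre-ERT2 arrays. Zfp558 (probe set 10591164) read 104, 111 and 107 in ERT2 and 176, 204 and 205 in Cre-ERT2, a rise of 0.85 (SE 0.0736, limma adjusted p = 0.00108). It was the 1 called member with a second probe set, and that one rose too, by 0.77 (SE 0.122, limma adjusted p = 0.0148).

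Zfp111 (probe set 10560818) read 102, 79.6 and 110 in ERT2 and 160, 187 and 172 in Cre-ERT2, a rise of 0.83 (SE 0.127, limma adjusted p = 0.0127). Zfp287, a zinc-finger gene of the SCAN and KRAB type, read 308, 366 and 278 in ERT2 and 455, 573 and 517 in Cre-ERT2, a rise of 0.70 (SE 0.125, limma adjusted p = 0.0245). In both genes the groups were apart, and ERT2 replicate 2 was the control nearest to the Cre-ERT2 arrays for Zfp287 and the farthest for Zfp111. Zfp296, known in mouse stem cells as a partner of the reprogramming factors, read 551, 548 and 474 in ERT2 and 713, 705 and 674 in Cre-ERT2, a rise of 0.41 (SE 0.072, limma adjusted p = 0.0217). The remaining rises were small.

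Zfp229 read 420, 514 and 435 in ERT2 and 601, 616 and 584 in Cre-ERT2 (difference 0.40, limma adjusted p = 0.0426). Zfp579 read 226, 246 and 228 in ERT2 and 310, 283 and 303 in Cre-ERT2 (difference 0.35, limma adjusted p = 0.0197). Zfp11 read 475, 500 and 433 in ERT2 and 582, 615 and 569 in Cre-ERT2 (difference 0.33, limma adjusted p = 0.0439). In each of these 3 genes ERT2 replicate 2 was the highest control and still lay below every Cre-ERT2 array.

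Zfp521 fell the most. Zfp521, known in mouse as Evi3, is a common retroviral insertion site in B-cell lymphoma, and its protein binds and inhibits EBF1, a factor that B-cell development needs. Its probe set (10457587) read 361, 406 and 372 in ERT2 replicates 1 to 3 and 138, 128 and 152 in Cre-ERT2 replicates 1 to 3. The highest Cre-ERT2 array lay below the lowest control by more than the range within either group. The means were 380 ± 23.4 and 139 ± 12.0 (SD, n = 3 each), so that Cre-ERT2 cells held 36.6% of the control intensity. The difference was -1.44 (SE 0.0802, limma adjusted p = 0.000196).

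Zfp358 and Zfp507 followed, with differences of -0.64 each. Zfp358 read 1113, 1052 and 1050 in ERT2 and 688, 678 and 699 in Cre-ERT2 (SE 0.0483, limma adjusted p = 0.000619). Zfp507 read 1293, 1443 and 1267 in ERT2 and 807, 867 and 897 in Cre-ERT2 (SE 0.0713, limma adjusted p = 0.00336). Within each group the arrays of Zfp358 were close together, whereas those of Zfp507 were spread more. Zfp184 read 102, 115 and 104 in ERT2 and 73.6, 77.7 and 69.9 in Cre-ERT2, a difference of -0.53 (SE 0.0689, limma adjusted p = 0.00623).

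The other 6 falls were smaller. Zfp503, known as Nolz1 and as a co-repressor in the developing striatum, read 309, 284 and 312 in ERT2 and 229, 205 and 235 in Cre-ERT2 (difference -0.43, limma adjusted p = 0.017). Zfp110, whose protein binds the neurotrophin receptor p75, read 2068, 2081 and 1816 in ERT2 and 1484, 1501 and 1448 in Cre-ERT2 (difference -0.43, limma adjusted p = 0.0138). Zfp90, a KRAB protein that binds the neuronal repressor REST, read 589, 605 and 564 in ERT2 and 415, 484 and 454 in Cre-ERT2 (difference -0.38, limma adjusted p = 0.0266). In these 3 genes too the groups were apart. 

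Zfp300 read 87.2, 79.2 and 85.4 in ERT2 and 67.1, 64.3 and 58.8 in Cre-ERT2 (difference -0.40, limma adjusted p = 0.0204). Zfp365, whose protein is a partner of DISC1, read 220, 246 and 239 in ERT2 and 170, 197 and 168 in Cre-ERT2 (difference -0.40, limma adjusted p = 0.0385). Zfp362, a close relative of Zfp384, read 1585, 1535 and 1519 in ERT2 and 1314, 1268 and 1269 in Cre-ERT2 (difference -0.27, limma adjusted p = 0.0212). In all 3 the groups were apart, and for Zfp365 Cre-ERT2 replicate 2 came closest to the controls.

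**Figure D2:**
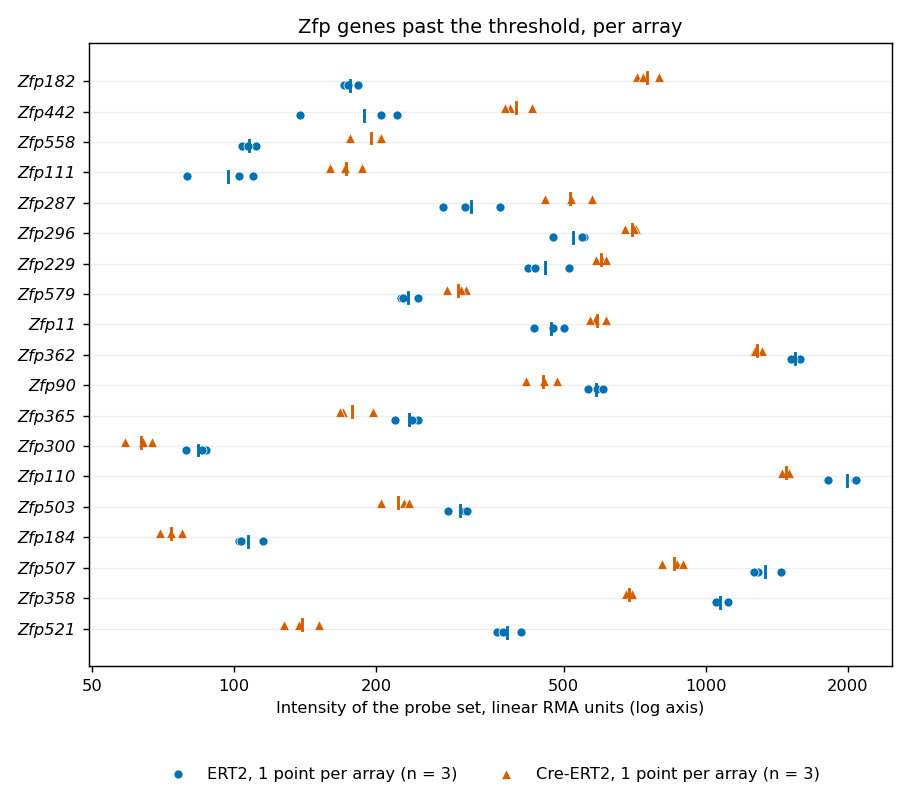
Intensity in linear RMA units (log axis) of the 19 Zfp genes past the threshold, with 1 point per array and a bar at the group mean; genes are ordered by their difference. In each of the 19 genes the 3 Cre-ERT2 arrays lie on one side of the 3 ERT2 arrays; intensities of different genes are not comparable with each other.

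Dim and bright genes were both among the 19. Of the 177 genes 129 had a mean at or above the median of all probe sets and 48 below it. Of the brighter ones 5 were higher and 5 lower, and of the dimmer ones 4 were higher and 5 lower. As shares these are 3.88% and 3.88% of the brighter members, where 6.98% and 5.28% of all brighter genes were called. Among the dimmer members they are 8.33% and 10.4%, where 1.5% and 2% of all dimmer genes were called. Nothing is read from these shares either, and their difference was not tested. No detection call comes with the values, so whether a dim probe set measured its gene at all was not tested. This bears most on Zfp300 and Zfp184, with control means of 83.9 and 107. Zfp111 and Zfp558, with control means of 97.2 and 107, were as dim in the controls.

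The calls differed in whether they withstood the removal of 1 array. Zfp521, Zfp358, Zfp507, Zfp558 and Zfp184 kept an adjusted p under 0.05 whichever array was left out, with highest values of 0.00233, 0.00604, 0.0169, 0.00883 and 0.0355. The 13 other tested genes lost their call without at least 1 array. Zfp442 lost it without any 1 of the Cre-ERT2 arrays (0.0552 to 0.0658) and Zfp111 without Cre-ERT2 replicate 2 (0.0537) or 3 (0.0563). Zfp296 lost it without any 1 of the Cre-ERT2 arrays (0.0717 to 0.0898), and Zfp287 without ERT2 replicate 1 or 3 or Cre-ERT2 replicate 2 or 3 (0.0762 to 0.0955). Zfp110 was not called once ERT2 replicate 1 or a Cre-ERT2 array had been removed (0.055 to 0.0733), nor was Zfp503 without ERT2 replicate 1 or 3 or Cre-ERT2 replicate 1 or 2 (0.0508 to 0.076).

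Among the smaller changes, Zfp11 and Zfp229 were called in the absence of ERT2 replicate 2 but not without any other array (0.0919 to 0.157 and 0.122 to 0.148). Zfp90 and Zfp365 were called in the absence of Cre-ERT2 replicate 2 but not without any other array (0.0621 to 0.102 and 0.0685 to 0.147). For Zfp362 the call was lost on removing ERT2 replicate 1 or a Cre-ERT2 array (0.0604 to 0.111). Zfp300 was lost without ERT2 replicate 1 or 3 or Cre-ERT2 replicate 2 or 3 (0.0735 to 0.0862), and Zfp579 without ERT2 replicate 1 or 3 or Cre-ERT2 replicate 1 or 3 (0.0722 to 0.0958).

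**Figure D3:**
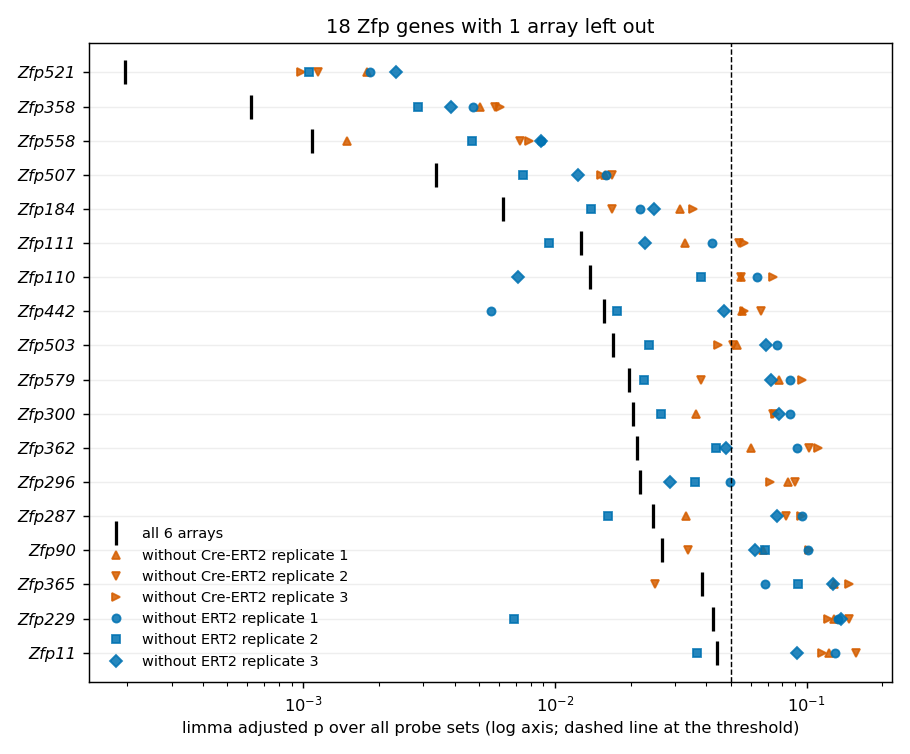
Adjusted p of limma over all probe sets (log axis) for 18 Zfp genes, with all 6 arrays (black bar) and with 1 array left out (symbols; blue for an ERT2 array, orange for a Cre-ERT2 array); the dashed line is at 0.05. All symbols of Zfp521, Zfp358, Zfp558, Zfp507 and Zfp184 lie left of the line, whereas most of those of Zfp365, Zfp229 and Zfp11 lie right of it.

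Among the listed members with a known role in lymphocytes or leukaemia, Zfp521 alone passed the limma test used above. Of 5 genes in that list 0 rose and 1 fell by limma, where 4.38% of all genes were higher and 3.72% lower. At an unadjusted p under 0.05 the numbers were 1 and 1, where 12.2% of all genes were higher and 7.92% lower. The median difference was 0.06, against 0.02 over all genes. Zfp318, which lets mature B cells make IgD by suppressing a transcription stop, read 509, 557 and 517 in ERT2 and 583, 670 and 667 in Cre-ERT2. These groups were apart, and the difference of 0.28 (SE 0.0734) had a limma adjusted p of 0.096. Zfp318 did pass under some other settings, given in the next paragraph. Zfp423, a relative of Zfp521 that also binds EBF1, had a difference of 0.07 (SE 0.0816). Zfp384, a frequent fusion gene in human B-cell leukaemia, had one of -0.000367 (SE 0.0525), and Zfp335, which thymocytes need to mature, one of 0.06 (SE 0.0475).

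Among 6 genes of pluripotency, embryo and imprinting, Zfp296 rose and 0 fell by limma, against the same 4.38% and 3.72% of all genes. At an unadjusted p under 0.05, 2 were higher and 1 lower, against 12.2% and 7.92% of all genes. The median difference was 0.03. Zfp57, a KRAB protein that guards imprinted DNA methylation, had a difference of 0.17 (limma adjusted p = 0.141). Zfp462, a heterochromatin factor of neural and stem cells, had one of -0.16 (limma adjusted p = 0.103). Zfp42, the stem-cell marker known as Rex1, had -0.09, Zfp281 had -0.03 and Zfp568, which represses the placental transcript of Igf2, had 0.08. None of these 5 passed the test. Zfp318 passed among the brighter probe sets alone (limma adjusted p = 0.0463) and with array weights (0.0145), and Zfp462 passed among the brighter probe sets alone (0.038) and after cyclic loess (0.0425). Zfp57 passed with array weights (0.027).

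Promoter-binding factors and co-regulators had 0 of 5 higher and 0 lower by limma (4.38% and 3.72% of all genes). Their median difference was 0.02. At an unadjusted p under 0.05, 0 were higher and 1 lower, where 12.2% and 7.92% of all genes were. Zfp148, which binds GC-rich promoters, had a difference of 0.02, and Zfp131, a BTB-domain factor, one of 0.03. Zfp217, a partner of the co-repressor CtBP that is amplified in human breast cancer, had 0.06. Zfp410, an activator of the Chd4 gene, had -0.05, and Zfp219 had -0.12, the 1 below the unadjusted threshold.

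Members that act on RNA, the ribosome, the spindle or SUMO had 0 of 6 higher and 0 lower by limma. Of all genes 4.38% were higher and 3.72% lower. At an unadjusted p under 0.05, 0 passed in either direction (12.2% and 7.92% of all genes). The median difference was -0.04. Zfp106, an RNA-binding protein, had the largest difference, 0.14 (SE 0.0607, limma adjusted p = 0.322). Zfp207, which loads BUB3 onto kinetochores, had -0.03, Zfp326, a splicing-linked partner of RNA polymerase, had -0.09, and Zfp346, which binds dsRNA, had -0.05. Zfp451, a SUMO ligase, had -0.09. Zfp598, the ubiquitin ligase of collided ribosomes, had -0.04 (SE 0.0578).

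The co-repressors that KRAB zinc fingers work through passed in no case. Of 21 measured genes of that machinery 0 were higher and 0 lower by limma, against 4.38% and 3.72% of all genes. Nothing is read from the absence of calls at those shares. The differences ran from -0.17 to 0.11 with a median of -0.01. At an unadjusted p under 0.05, 0 were higher and 3 lower, against 12.2% and 7.92% of all genes. Trim28 read a mean of 6324 in ERT2 and 6185 in Cre-ERT2, a difference of -0.03 (SE 0.0491). Setdb1 had a difference of -0.0004 (SE 0.0461). The smallest p-values were those of the H3K9 methyltransferase genes Ehmt2 (-0.17, limma adjusted p = 0.135) and Suv39h2 (-0.17, limma adjusted p = 0.22), then Cbx1, which encodes HP1 beta (-0.16, limma adjusted p = 0.273), and Smarcad1 (-0.13, limma adjusted p = 0.383). Suv39h2 passed after cyclic loess (0.0472) and Ehmt2 with array weights (0.0291).

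Some of the Zfp genes lie side by side. In the RefSeq gene table (GRCm38.p6) 176 of the 177 were found, and 65 of them lay directly next to another member among protein-coding genes, in 23 runs. Of these 65 genes 4 were called, 1 in each of 4 runs, with Zfp111, Zfp287 and Zfp442 higher and Zfp110 lower. Of all genes 4.38% were called higher and 3.72% lower, and nothing is read from the count in runs. Whether neighbours move together was not tested. The longest run holds 10 genes, in the order Zfp180, Zfp112, Zfp235, Zfp114, Zfp111, Zfp109, Zfp108, Zfp93, Zfp61 and Zfp94. Zfp111 rose by 0.83, while its direct neighbours Zfp114 and Zfp109 had differences of -0.14 (SE 0.0666) and -0.04 (SE 0.0916), and the median of the run was -0.01. Zfp61, near the end of that run, read 286, 307 and 258 in ERT2 and 335, 354 and 355 in Cre-ERT2, with groups apart (difference 0.30, limma adjusted p = 0.0778).

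The shorter runs with a call were those of Zfp287, Zfp442 and Zfp110. Zfp287 rose by 0.70 and its neighbour Zfp286 had a difference of 0.08 (SE 0.0627). Zfp442 rose by 1.10 and its neighbour Zfp345 had 0.10 (SE 0.116), though with control means of 188 and 31.6 the probe set of Zfp345 was very dim. The gene after Zfp345, Cst7, which encodes cystatin F, rose by 0.82 (SE 0.0516, limma adjusted p = 0.000304), and the next, Apmap, had a difference of 0.29 (SE 0.0759, limma adjusted p = 0.0972). Zfp110 fell by 0.43 between Zfp329 and Zfp128, with differences of -0.11 (SE 0.104) and -0.14 (SE 0.061). In a run of 4 genes without a call, Zfp455, Zfp458, Zfp457 and Zfp595, all differences were above 0, from 0.08 to 0.45. Zfp458 read 438, 543 and 542 in ERT2 and 613, 777 and 690 in Cre-ERT2, which was the largest difference among the 158 genes that did not pass (limma adjusted p = 0.097). Duplicated zinc-finger genes share sequence, and how far the probes of one bind transcripts of another was not tested.

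In the remaining runs no gene passed. The run of Zfp74, Zfp568, Zfp14, Zfp82 and Zfp566 had differences from -0.19 to 0.08, and that of Zfp54, Zfp51, Zfp53 and Zfp52 from -0.21 to 0.08. Zfp382 and Zfp146, side by side, both lay below the controls on every Cre-ERT2 array. Zfp382 read 684, 748 and 663 in ERT2 and 604, 621 and 594 in Cre-ERT2 (difference -0.20, limma adjusted p = 0.138), and Zfp146 read 2245, 2302 and 2168 against 1818, 2033 and 1904 (difference -0.22, limma adjusted p = 0.0954).

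Zfp182 and Zfp300 lie close together with only Spaca5 between them, and they moved in opposite directions, by 2.08 and -0.40. Spaca5 had a difference of 0.16 (SE 0.0832), but its probe set was dim, with means of 86.2 in ERT2 and 96.6 in Cre-ERT2. On the other side of Zfp182, Uxt had -0.05 (SE 0.048), and Elk1, a serum-response ETS factor, fell by 0.82 (SE 0.0862, limma adjusted p = 0.0026). Neither direct neighbour had a difference as large as that of Zfp182, and whether the dim probe set of Spaca5 measured its gene was not tested.

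**Figure D4:**
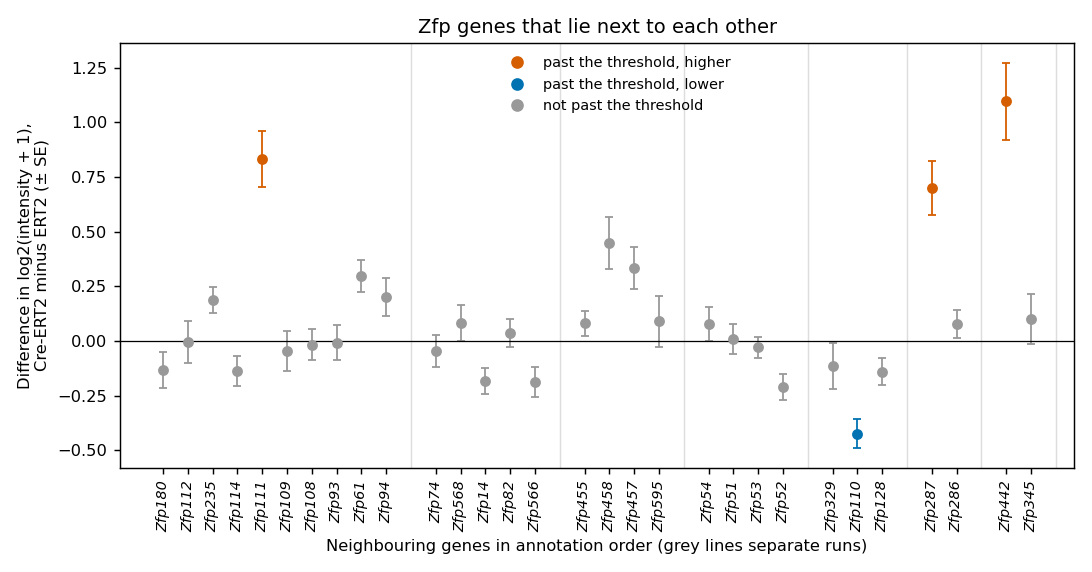
Difference in log2(intensity + 1), Cre-ERT2 minus ERT2, with its standard error, for Zfp genes that lie next to each other, in annotation order; runs of 4 or more genes and shorter runs with a call are shown. In each run with a call 1 gene passed the threshold and lies farthest from 0, such as Zfp111 (0.83) in the run of 10.

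The promoters of Zfp558, Zfp358, Zfp507 and Zfp184 are shown because their calls held whichever array was left out. Promoters of Zfp182 and Zfp521 were not analysed here. The 250 bases before the first RefSeq start (GRCm38.p6) were searched for ACAAAG and ACAATG, cores that SOX proteins are known to bind, on both strands, and matches are in capitals. Zfp558 is the gene that rose, and the other 3 fell. They lie at chr9:18473646-18473895 (minus strand) for Zfp558, chr8:3492888-3493137 (plus strand) for Zfp358, chr7:35802990-35803239 (minus strand) for Zfp507 and chr13:21944844-21945093 (plus strand) for Zfp184.
Zfp558: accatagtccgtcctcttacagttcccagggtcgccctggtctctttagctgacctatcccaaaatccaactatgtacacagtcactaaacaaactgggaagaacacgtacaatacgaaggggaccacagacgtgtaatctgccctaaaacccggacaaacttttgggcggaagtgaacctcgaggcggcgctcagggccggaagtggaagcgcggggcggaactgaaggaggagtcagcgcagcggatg
Zfp358: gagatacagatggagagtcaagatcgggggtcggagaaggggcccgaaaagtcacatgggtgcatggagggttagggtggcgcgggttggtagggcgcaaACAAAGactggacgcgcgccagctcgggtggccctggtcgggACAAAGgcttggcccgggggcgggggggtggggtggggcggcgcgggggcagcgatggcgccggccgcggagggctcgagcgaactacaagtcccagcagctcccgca
Zfp507: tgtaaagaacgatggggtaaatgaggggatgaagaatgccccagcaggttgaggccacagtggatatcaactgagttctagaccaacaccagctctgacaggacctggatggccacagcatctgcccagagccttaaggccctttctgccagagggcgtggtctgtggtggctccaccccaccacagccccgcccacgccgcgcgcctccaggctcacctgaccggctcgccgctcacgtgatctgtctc
Zfp184: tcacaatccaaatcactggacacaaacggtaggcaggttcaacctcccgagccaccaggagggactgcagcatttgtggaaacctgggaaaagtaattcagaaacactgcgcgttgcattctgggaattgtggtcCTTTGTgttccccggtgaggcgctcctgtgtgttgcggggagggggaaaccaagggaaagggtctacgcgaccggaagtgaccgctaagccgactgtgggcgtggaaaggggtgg

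Zfp358 holds 2 matches, Zfp184 holds 1, and Zfp558 and Zfp507 hold 0. Promoters of 139 of the 177 genes were matched by symbol. Of these 23 (16.5%) hold a match, as do 6887 of 27025 promoters over all genes (25.5%), which were not limited to genes on the array. The member promoters had a GC content of 55.6% and a median of 12 CpG sites, against 53.0% and 6 over all genes. How far this bears on the matches was not tested. Among the matched promoters of genes that rose 0 of 8 hold one, among those of genes that fell 3 of 7, and among those not called 20 of 124. A match is a description of the letters and says nothing of binding.

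Variation between replicates was modest and fell unevenly on the arrays. The median SD of the 177 genes on the log2 scale was 0.0872 in ERT2 and 0.0516 in Cre-ERT2. ERT2 replicate 2 stood farthest from its group, with deviations from the group mean that had an SD of 0.0944 over the 177 genes, against 0.0711 and 0.082 for ERT2 replicates 1 and 3 and 0.0489 to 0.0634 for the Cre-ERT2 arrays. Of the 158 genes that did not pass, 17 lay wholly above and 19 wholly below the controls. Over all genes, called ones included, 17.5% lay wholly above and 10.8% wholly below, and nothing is read from these counts. Zfp213 came closest to the threshold, with 798, 726 and 795 in ERT2, 923, 954 and 902 in Cre-ERT2 and a limma adjusted p of 0.053.

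The limit of 600 in the symbol has no biological meaning. Just inside it, Zfp598 and Zfp599 had differences of -0.04 and -0.11. Just outside it, Zfp600 had one of 1.53 and Zfp605 one of -0.03. Of the 139 Zfp genes numbered 600 and above 19 were higher (13.7%) and 5 lower (3.6%). Of the 177 here 9 were higher (5.08%) and 10 lower (5.65%), and of all genes 4.38% were higher and 3.72% lower. Whether these counts differ was not tested.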

How the data were processed

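The authors deposited 1 intensity per probe set and array, made by RMA (background correction, quantile normalization and probe summary), per the submitters' processing notes. The sources used here do not give its version, the probe annotation or the genome build. The deposited intensities are linear (6.27 to 26714), so log2(intensity + 1) was taken, which slightly understates changes of dim probe sets. Quantile normalization would mask a shift common to all genes. Of 35556 probe sets 21789 name 1 gene, 1621 several and 12146 none, and 4 further Zfp symbols below 600 occur only in probe sets with several genes and were not used.

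All probe sets were fitted with limma 3.58.1 in R 4.3.3 (lmFit, eBayes, no trend, no covariates, 6 arrays, no filter on low values), with Benjamini-Hochberg adjustment over all of them and a threshold of 0.05. Errors of differences are moderated standard errors.

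Members, lists and tests were chosen with earlier results of these data known. Genes named are the 15 steepest rises and falls among called members (fewer were called), all members of 4 role lists, co-repressors with the 4 smallest p-values, and genes on either side of the symbol limit; others were named after their values were seen. Of the listed genes Zfp143, Zfp91, Mphosph8 and Suv39h1 were not analysed here, nor were some cell type markers and protein features. Promoter sequences and gene order are from RefSeq.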

Additional observations from a re-analysis of the deposited data

How the results depend on the processing

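The fit was repeated with each array left out, with median centring, cyclic loess, array weights, a replicate block, a pseudocount of 16, a minimum fold of 1.5, the brighter probe sets alone, probe sets averaged per gene, and eBayes with an intensity trend or robust. None of the 19 called genes changed direction under any of them. Zfp521, Zfp358, Zfp507, Zfp558 and Zfp184 passed at adjusted p under 0.05 in each of those in which they were tested, Zfp521, Zfp558 and Zfp184 being too dim for the brighter probe sets; with the minimum fold Zfp184 was not counted. The number of Zfp genes higher was 19 with array weights, 5 with the minimum fold, and 2 to 11 with 1 array left out. The number lower was 17 after cyclic loess, 16 with array weights, 3 with the minimum fold, and 4 to 8 with 1 array left out. Shares of all genes called under each setting are not given beside these counts. Co-repressor genes lower were 1 after cyclic loess and 1 with array weights. The cause of these changes in the counts was not tested. Fits with 1 array left out also had fewer samples. With a replicate block 8 were higher and 9 lower, and Zfp229, Zfp362 and Zfp579 lost their calls; Zfp11 lost its call under median centring. Replicate numbers are shared between the groups, and whether they pair the samples cannot be told from these values. Deviations of same-numbered samples from their group means correlated across probe sets with r of 0.205, 0.344 and -0.0491. No correlation of differently numbered samples is given beside them. The median of the 177 genes lay between 0.00411 (without ERT2 replicate 3) and 0.0358 (without ERT2 replicate 2) except after cyclic loess (-0.0165). Uncalled differences near 0 changed sign for Zfp148 (-0.0018) and Zfp131 (-0.00306) after cyclic loess and for Zfp281 (0.0036) and Zfp605 (0.0421) with array weights. With 1 array left out, differences ran from -0.0383 to 0.022 for Zfp384, from -0.0199 to 0.113 for Zfp423 and from -0.0964 to 0.029 for Zfp605, each changing sign.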
